A study of Rattus norvegicus with 40 samples.

Results

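The gene expression of rat cerebral cortex kept at normal oxygen was compared between 2 runs of sample numbers, sham 16 to 20 against sham 11 to 15. These are 10 of the 40 arrays of the series, 5 on each side, and were taken by their labels. The comparison itself was chosen with earlier results of these data known. All 40 samples are total RNA from the cerebral cortex of Rattus norvegicus on 1-colour Affymetrix arrays; 20 are labelled sham (normoxic) preconditioning and 20 hypoxic preconditioning, each group numbered 1 to 20. The sham rats received no hypoxia, and no genotype, strain, age, sex, oxygen level or time is given in the labels used here. The labels also do not say what a run of numbers stands for, whether samples came from separate animals, or whether runs were collected or hybridised together, so run and any batch that follows it cannot be told apart, and p-values measure only how far these samples vary, part of which may be technical.

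A sham group shows how cortex changes when oxygen does not, and so sets the baseline that a preconditioned group is read against. Cortical neurons release transmitter from synaptic vesicles that synapsins hold in reserve, that SNARE proteins such as VAMP2 fuse with the membrane and that dynamin recovers. Young neurons instead carry genes such as Sox11, a transcription factor, and Dcx, a microtubule protein of migrating neurons. Large sets of RNA-binding and chromatin proteins, among them hnRNP proteins and the Polycomb complex PRC2, are also known to be high in developing brain. The labels give no age, and the part of development in the results was not tested.

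In sham 16 to 20, neuronal and synaptic genes were among those that rose, and RNA-processing, chromatin and zinc finger genes were among those that fell. Syn1, Dnm1 and Prkce of the first, and Srsf10, Pbrm1 and Zscan21 of the second, passed in every alternative analysis described below. None of the changes that passed reached 2-fold. Values are log2 of the deposited intensity, with intensities below 16 set to 16, and a difference is 16 to 20 minus 11 to 15 on that scale. Of 18625 probe sets kept above a level filter, 522 passed the threshold (limma, Benjamini-Hochberg adjusted p under 0.05), which is 2.80%; 209 were higher (1.12%) and 313 lower (1.68%). With 1 probe set for each of 10304 genes, 133 genes rose (1.29%) and 184 fell (1.79%). These shares are the background for every count of a list or family below. The median size of a rise was 0.34 and of a fall -0.36. Of the 522 probe sets, 349 had no overlap between the 5 and 5 arrays, against 938 of all probe sets (5.04%). The 522 were chosen on these same arrays, so little overlap among them follows from the choice and is no added support. The same holds for each gene given below as without overlap.

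The count depended on single arrays. It was 92 without sham 11, 423 without 12, 254 without 13, 329 without 14, 198 without 15, 256 without 17, 318 without 18, 137 without 19 and 78 without 20, and rose to 1242 without sham 16. On the first principal component of the 20 sham arrays, which held 17.1% of the variance, sham 16 scored 6.51 and lay nearest to the 11 to 15 arrays (-5.04 to 5.13), while sham 17 to 20 scored 16.37 to 25.4. Across 23 alternative analyses (other scalings, floors, filters, arrays and covariates, and each array left out), 36 of the 522 probe sets passed the threshold in every one that tested them, 8 higher and 28 lower. They stand for 8 genes that rose and 15 that fell, with 9 unnamed probe sets and 4 probe sets that are not the main one of their gene. Those 23 genes are described first and most fully, and were singled out after their values were seen. The alternatives reuse the same arrays, so passing in all of them is no independent support. For other genes named as past the threshold, the highest adjusted p over the alternatives is mostly given as the upper value.

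**Figure D1:**
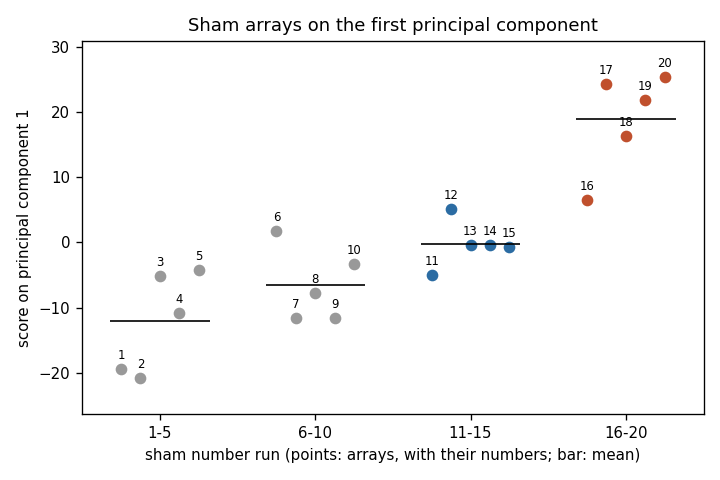
Scores of the 20 sham arrays on the first principal component of all kept probe sets (y axis, no unit) by run of sample numbers (x axis); each point is an array with its number, bars are run means. Sham 17 to 20 score 16.37 or more, above every other sham array, and sham 16 scores 6.51.

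Measures of the arrays themselves were close in both runs. The array median was 5.76 ± 0.03 (SD, n = 5) in both, and the share of values at the floor was 25.4% ± 0.64 in 16 to 20 and 25.3% ± 1.1 in 11 to 15. None of 6 measures, which also covered 3' to 5' ratios of actin, GAPDH and hexokinase control probe sets and the hybridization controls, passed an exact two-sided permutation test (p from 0.15 to 0.96, adjusted 0.68 or more; the smallest p that 5 against 5 allows is 0.0079). Xist, which marks female tissue, was at 9.89 to 10.53 in sham 11, 12, 17, 18 and 20 and at the floor of 4 in the other 5 arrays, with Eif2s3y, carried on the Y chromosome, in the opposite pattern. Arrays with Xist signal thus numbered 2 in 11 to 15 and 3 in 16 to 20, and with the Xist level in the fit 418 probe sets passed, 406 of them among the 522.

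The earlier sham arrays differed from both runs in their spike-in signal. The mean log2 level of the poly-A spike-in control probe sets was 6.25 to 7.64 in sham 1 to 10 and 4.00 to 4.07, at or near the floor, in sham 11 to 20. The preconditioned arrays were split in the same way (6.46 to 7.71 in 1 to 10, and 4.00 in 11 to 20). Levels of sham 1 to 10 given beside those of the compared runs come from arrays with this other spike-in signal, whose part was not tested. The sham 1 to 10 arrays enter the comparison through the estimate of the spread and the level filter; with the 10 compared arrays fitted alone, 360 probe sets passed, 300 of them among the 522.

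The promoters of Syn1, a synaptic gene that rose under every alternative, and of Sox11, the young-neuron gene with the lowest p, are shown as examples and do not stand for their groups. They are RefSeq windows of 250 bases before to 50 after the start of the gene in build GRCr8, Syn1 at chrX:3725495-3725794 (plus strand) and Sox11 at chr6:49738745-49739044 (minus strand). Capitals mark TGACGTCA, the CRE bound by CREB-type factors, in Syn1, and TTTGAA, the CHR of cell cycle genes, and ATTGG, the reverse of CCAAT, in Sox11.
Syn1: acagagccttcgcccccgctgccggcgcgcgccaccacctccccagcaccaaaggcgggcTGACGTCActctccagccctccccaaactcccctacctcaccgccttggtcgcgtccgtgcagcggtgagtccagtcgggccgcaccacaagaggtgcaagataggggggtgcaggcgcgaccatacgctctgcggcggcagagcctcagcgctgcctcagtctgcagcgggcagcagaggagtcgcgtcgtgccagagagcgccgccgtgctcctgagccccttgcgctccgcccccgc
Sox11: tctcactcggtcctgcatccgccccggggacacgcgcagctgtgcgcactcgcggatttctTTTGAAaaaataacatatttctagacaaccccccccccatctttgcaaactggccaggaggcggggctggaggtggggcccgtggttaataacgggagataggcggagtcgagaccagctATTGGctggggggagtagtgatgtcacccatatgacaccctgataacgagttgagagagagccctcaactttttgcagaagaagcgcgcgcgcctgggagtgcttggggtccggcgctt
Searched on both strands, the CRE was in 5 of the 106 risers with a promoter in the table (4.72%), in 8 of 162 genes that fell (4.94%), in 3.36% of all tested genes and in 1.91% of all promoters. The CHR was in 7.55% of risers, 13.0% of genes that fell and 10.9% of genes tested, and CCAAT in 33.0%, 38.9% and 37.8%. Of the clock motifs, the E-box CACGTG was in 5.66% of risers, 12.3% of genes that fell and 9.68% of genes tested, and the D-box TTATGNAA was in 0 of 106 risers, 1.23% of genes that fell and 1.57% of genes tested. These are matches of letters in a window and not binding sites.

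Syn1 and Dnm1, of vesicle supply and recovery, rose under every alternative. Syn1, synapsin I, which tethers synaptic vesicles, measured 9.17, 9.33, 9.37, 9.20 and 9.35 in sham 11 to 15 and 9.49, 9.81, 9.53, 9.87 and 9.84 in sham 16 to 20. Every array of the later numbers was above every array of the earlier ones, a 1.34-fold difference (0.42 ± 0.08 SE, limma adjusted p = 0.0117, up to 0.0481 over the alternatives). Its other probe set rose as well (0.35). Dnm1, the dynamin that pinches off vesicles, measured 9.84, 10.14, 10.13, 10.07 and 9.99 against 10.20, 10.64, 10.34, 10.52 and 10.59. The groups again did not overlap, and the difference was 0.42 ± 0.08 (adjusted p = 0.0117, up to 0.0481). Syn2, another synapsin, rose by 0.38 ± 0.10 (adjusted p = 0.0372, up to 0.116), but sham 16 at 8.58 lay within the range of sham 11 to 15 (8.45 to 8.72). Vamp2, the vesicle SNARE, rose by 0.31 ± 0.08 (adjusted p = 0.0319, up to 0.162), with sham 16 to 20 at 9.81 to 10.21 above sham 11 to 15 at 9.50 to 9.78. Syt4, a synaptotagmin that does not act as the fast calcium sensor of release, fell by 0.22 on the log2 scale (SE 0.05, adjusted p = 0.0246, up to 0.0943), while its other probe set stood at 0.03.

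Of the 28 measured genes of presynaptic release and scaffolds, 3 rose and 1 fell, and 22 had a difference above 0. Their median was 0.19, against 0.00 for all genes, of which 51.0% were above 0, 1.29% rose and 1.79% fell. Not past the threshold but near it were Stx1a, the target-membrane SNARE (0.30, adjusted p = 0.0542), Sv2a, a vesicle membrane protein (0.26, adjusted p = 0.0603), and Shank3, a scaffold of the excitatory synapse (0.37, adjusted p = 0.0639). Without sham 16, 11 of the 28 rose, as did 565 of all 18625 probe sets. Without sham 20, 1 of the 28 rose, as did 21 of all 18625.

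Among kinases, Prkce, protein kinase C epsilon, measured 8.48, 8.67, 8.67, 8.45 and 8.44 in sham 11 to 15 and 8.81, 8.90, 9.18, 9.08 and 9.11 in sham 16 to 20. With no overlap and a 1.39-fold difference (0.48 ± 0.07 SE, limma adjusted p = 0.00435, up to 0.0194), it was among the rises with the smallest adjusted p. Its 2 earlier sham runs stood at 8.69 and 8.37, so the 16 to 20 mean of 9.02 was the highest of the 4. Camk2b, the beta subunit of CaM kinase II, rose by 0.29 ± 0.06 (adjusted p = 0.0164, up to 0.0588) on both of its probe sets, and Camk2n1, an inhibitor of that kinase, by 0.47 ± 0.11 (adjusted p = 0.0264, up to 0.0966), though its other probe set gave -0.49. They were the 2 that rose of 6 subunits and inhibitors of CaM kinase II, of which none fell and 5 were above 0. Among 14 subunits of protein kinases C and A, Prkce and Prkaca (0.37, adjusted p = 0.0393, up to 0.11) rose and none fell, with a median of 0.04 and 6 below 0. Across all genes 1.29% rose. Both kinase families were chosen after their values were seen.

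**Figure D2:**
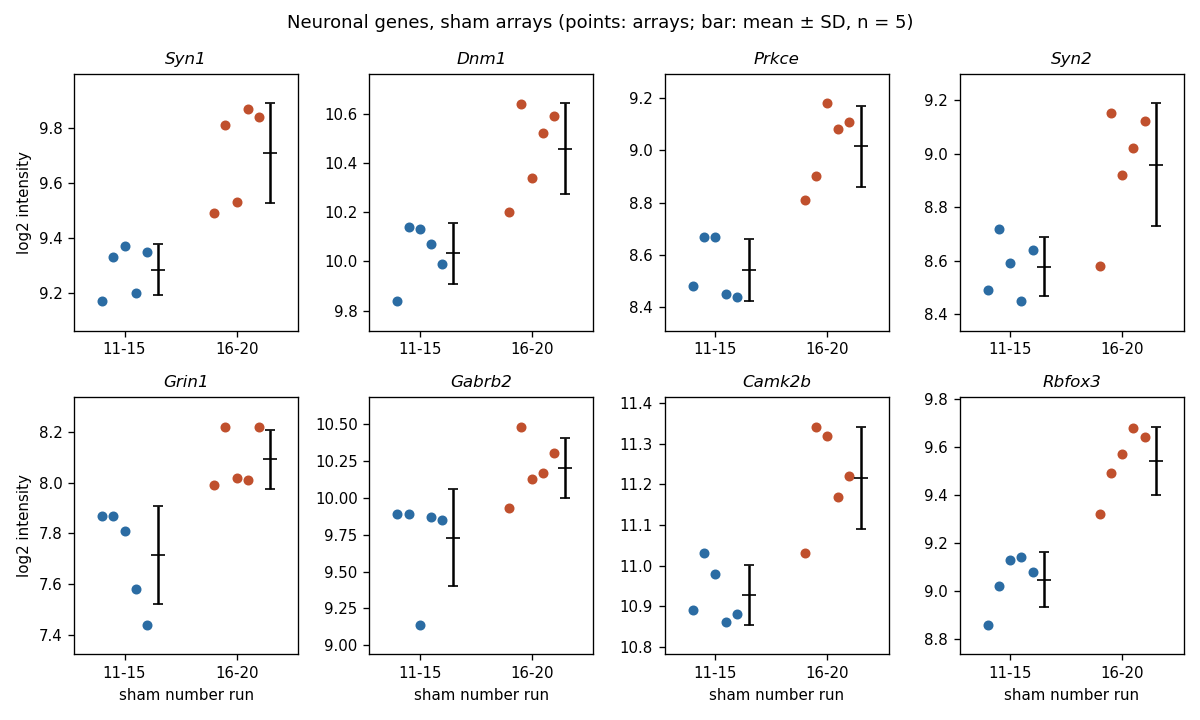
Log2 intensity (y axis) of 8 neuronal genes that rose, in sham 11 to 15 and sham 16 to 20 (x axis); points are arrays in number order, bars the mean ± SD (n = 5). The runs do not overlap in Syn1, Dnm1, Prkce, Grin1, Gabrb2 and Rbfox3, while the lowest 16 to 20 array of Syn2 (8.58) and of Camk2b (11.03) reaches the 11 to 15 range; sham 13 is low in Gabrb2 (9.14).

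Of 31 measured glutamate and GABA receptor genes and chloride transporters, 2 rose and none fell, with a median of 0.14 and 22 above 0. Across all genes 1.29% rose and 51.0% were above 0. Grin1, the obligatory NMDA receptor subunit, measured 7.87, 7.87, 7.81, 7.58 and 7.44 against 7.99, 8.22, 8.02, 8.01 and 8.22. It rose by 0.38 ± 0.09 (adjusted p = 0.0248, up to 0.0866), and its other probe set gave 0.33. Gabrb2, a beta subunit of the GABA-A receptor, rose by 0.47 ± 0.11 (adjusted p = 0.025, up to 0.0853); sham 13 measured 9.14 and the other 4 arrays of its run 9.85 to 9.89, against 9.93 to 10.48 in sham 16 to 20. Both subunits of the metabotropic GABA-B receptor rose, Gabbr1 by 0.28 ± 0.06 (adjusted p = 0.025, up to 0.081) and Gabbr2 by 0.40 ± 0.09 (adjusted p = 0.021, up to 0.0733). These subunits and the potassium channels below were chosen after their values were seen. Without sham 16, 5 of the 31 receptor list genes rose, as did 565 of all 18625 probe sets. Without sham 20 none of the 31 rose, and 21 of all 18625 did. Of 43 potassium channel genes none passed in limma (unadjusted p under 0.05 in 6 above and 1 below 0), with 31 above 0 and a median of 0.09.

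Rbfox3, which encodes the neuronal nuclear protein NeuN, measured 8.86, 9.02, 9.13, 9.14 and 9.08 in sham 11 to 15 and 9.32, 9.49, 9.57, 9.68 and 9.64 in sham 16 to 20. The runs did not overlap, and the rise was 0.49 ± 0.10 (adjusted p = 0.016, up to 0.0823). None of 22 measured markers of cortical excitatory neurons and layers passed in limma, with 8 above and 3 below 0 at unadjusted p under 0.05 and a median of 0.06, and the mean level of the list was 8.47 to 8.54 in the arrays of 11 to 15 and 8.46 to 8.68 in 16 to 20. Without sham 16, when 1242 of all 18625 probe sets passed, 8 of the 22 rose and 1 fell. Without sham 20 none of the 22 passed. In bulk tissue, more cells of a type and more RNA per cell cannot be told apart. Outside the lists, 3 genes that rose were chosen after their values were seen. They were Cdk5r2, an activator of CDK5 (0.46, adjusted p = 0.0296, up to 0.0999), Ddn, dendrin of the neuron's postsynaptic side (0.34, adjusted p = 0.0306, up to 0.0939), and Fam107a, an actin-associated protein high in astrocytes (0.48, adjusted p = 0.0474, up to 0.133).

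The other genes that rose under every alternative have less specific roles. Ube2ql1, a relative of the ubiquitin-conjugating enzymes, went from 8.76 to 8.92 over sham 11 to 15 to 9.09 to 9.52 over sham 16 to 20 (0.45 ± 0.07, adjusted p = 0.00324, up to 0.0255). Tmem151a, a transmembrane protein, measured 7.30, 7.48, 7.31, 7.30 and 7.53 against 7.64, 8.16, 7.79, 8.15 and 7.90, a 1.46-fold rise (adjusted p = 0.0146). Ipo13, a nuclear import receptor, rose by 0.40 ± 0.08, Coq10a, a coenzyme Q binding protein of mitochondria, by 0.34 ± 0.07, and Ezr, ezrin, which ties the membrane to actin, by 0.32 ± 0.06 (adjusted p = 0.0117, 0.0146 and 0.0117). In each of these 5 genes the arrays of the runs did not overlap. Other probe sets of Ube2ql1 and Tmem151a gave 0.17 and 0.42 and did not pass.

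By size, the rises were led by genes of low level or other cells. Aebp1, a repressor protein linked to the extracellular matrix, was the largest at 0.87 ± 0.24 (adjusted p = 0.0471, up to 0.137), but sham 15 was at the floor of 4 and sham 12 at 5.42 overlapped sham 16 at 5.36. Tmsb10-ps5, listed as a pseudogene of thymosin beta 10 and so open to signal from its parent gene, rose by 0.81 ± 0.19 (adjusted p = 0.0242, up to 0.0966). Fam222a (0.70), Fgl2, a fibrinogen-like protein of immune cells (0.67), Klf13, a transcription factor (0.56), and Tppp, a tubulin-binding protein of oligodendrocytes (0.55), each had no overlap between the runs. Their adjusted p were 0.0198, 0.0241, 0.0198 and 0.0117, with upper values of 0.0676, 0.108, 0.061 and 0.0546. Rnf39, a RING finger protein (0.53, adjusted p = 0.0412, up to 0.104), Agt, angiotensinogen, made in brain by astrocytes (0.53, adjusted p = 0.0281, up to 0.0843), and Pltp, a phospholipid transfer protein (0.53, adjusted p = 0.0496, up to 0.141), complete the 12 largest with Tmem151a, Egr1 and Rbfox3. Tmsb10-ps5 had its 11 to 15 arrays at 4.53 to 5.60 and its 16 to 20 arrays at 5.40 to 6.23, so its runs overlapped.

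Among the 15 genes that fell under every alternative were a sorting receptor, several RNA-processing proteins and a chromatin remodeller. Sorcs1, a sorting receptor of the VPS10 family, measured 8.05, 8.27, 8.12, 8.10 and 8.09 in sham 11 to 15 and 7.58, 7.38, 7.42, 7.40 and 7.27 in sham 16 to 20. The gap between the runs was wide against their SDs of 0.08 and 0.11, and the level was 1.64-fold lower (-0.72 ± 0.12 SE, limma adjusted p = 0.0061, up to 0.0395). Sorcs1 was also low in sham 1 to 5 (7.53) and high in sham 6 to 10 (8.18), so the 16 to 20 level of 7.41 was not the only low run. Zscan21, a zinc finger transcription factor, measured 7.00, 7.25, 7.23, 6.84 and 7.43 against 6.68, 6.34, 6.53, 6.61 and 6.43. Its runs did not overlap and it fell by 0.63 on the log2 scale (adjusted p = 0.0141, up to 0.0481). Here the earlier sham runs were near 11 to 15, at 7.16 and 7.09.

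Srsf10, a splicing factor of the SR family, measured 7.74, 7.77, 7.70, 8.07 and 7.49 in sham 11 to 15 and 7.13, 7.28, 7.27, 7.20 and 7.14 in sham 16 to 20, a 1.47-fold lower level with no overlap (-0.55 ± 0.09, adjusted p = 0.00466, up to 0.0355). Both of its other probe sets were also below 0 (-0.31 and -0.24). Pbrm1, a subunit of a SWI/SNF chromatin remodeller, measured 9.31, 9.04, 9.28, 9.16 and 9.33 against 8.94, 8.64, 8.63, 8.66 and 8.42. It fell by 0.56 on the log2 scale (SE 0.11, adjusted p = 0.0117, up to 0.0481), and of its 5 other probe sets 4 were below 0 and 1 passed. Lsm1, of the mRNA decapping complex, stood at -0.48 ± 0.10, Dimt1, which methylates ribosomal RNA, at -0.51 ± 0.09, and Fastkd5, of mitochondrial RNA processing, at -0.56 ± 0.10. In all 3 the arrays of 16 to 20 lay below every array of 11 to 15, in Lsm1 by less than 2 decimals show (nearest arrays both 7.89). The other probe set of Dimt1 gave -0.30 and did not pass.

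The remaining steady falls included Cttnbp2, which binds cortactin in dendritic spines (-0.54 ± 0.10, adjusted p = 0.00801), and Ankrd12, a nuclear ankyrin repeat protein (-0.52 ± 0.08, adjusted p = 0.00435). Csnk1g3, a casein kinase 1, measured 9.63, 9.49, 9.56, 9.55 and 9.57 against 9.29, 9.33, 9.32, 9.18 and 9.14, a small but tight change of -0.31 ± 0.05 (adjusted p = 0.00801, up to 0.0358). Peli1, a ubiquitin ligase of innate signalling (-0.43), Lrrc8c, a subunit of the volume-regulated anion channel (-0.36), Mageh1 (-0.33) and Txnl1, a thioredoxin-like protein (-0.23), followed, all with adjusted p of 0.0117 to 0.0125. The other probe set of Txnl1 gave 0.08. Those of Peli1, Lrrc8c and Ankrd12 gave -0.12, -0.26 and -0.21 and did not pass. The 3 others of Csnk1g3 ran from -0.365 to -0.041, and none passed. The unnamed gene LOC102546572 stood at -0.45 ± 0.08 (adjusted p = 0.00801).

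**Figure D3:**
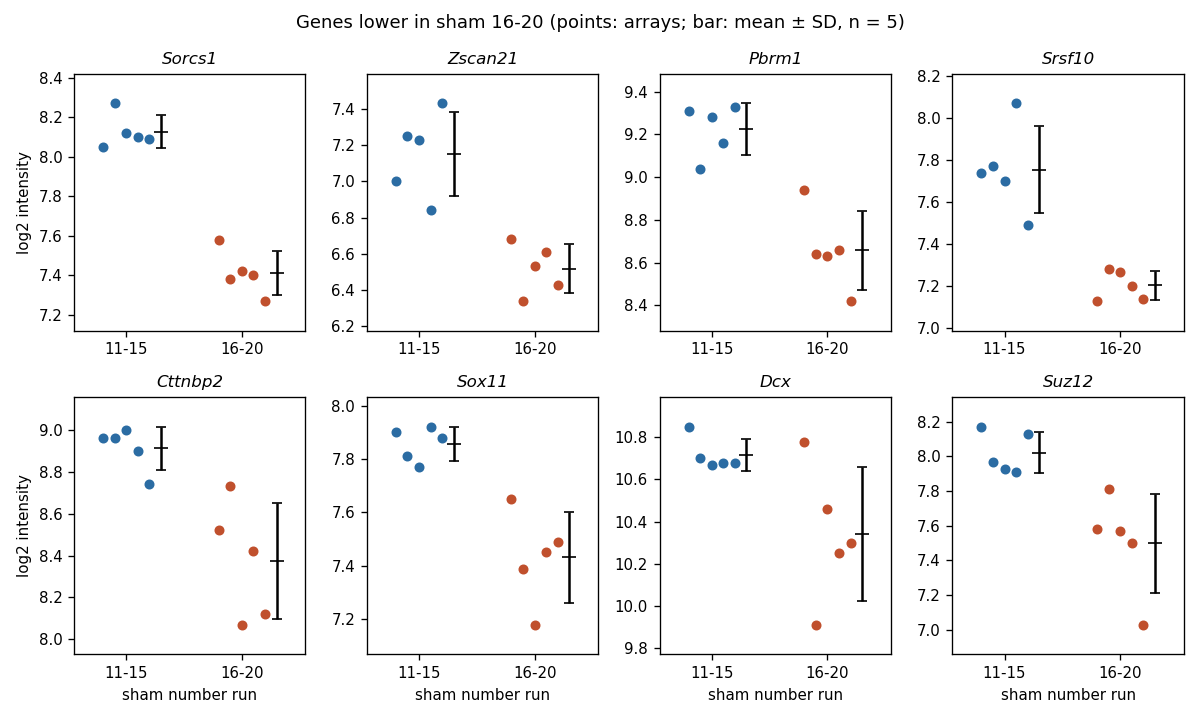
Log2 intensity (y axis) of 8 genes that fell, in sham 11 to 15 and sham 16 to 20 (x axis); points are arrays in number order, bars the mean ± SD (n = 5). The runs do not overlap in 7 of the 8; in Dcx sham 16 (10.78) lies inside the 11 to 15 range.

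By size, the falls were led by Zbtb12, a zinc finger factor (-0.97 ± 0.21, adjusted p = 0.0198, up to 0.0612), and Lrch2, a leucine-rich repeat protein (-0.95 ± 0.18, adjusted p = 0.0117, up to 0.0575). Lrch2 ran from 6.56 to 7.22 in sham 11 to 15 and from 5.44 to 6.42 in sham 16 to 20, with no overlap, while sham 16 at 5.78 overlapped for Zbtb12. The other probe set of Lrch2 stood at -0.21 and did not pass. Gpc2, a glypican of growing axons, measured 8.57, 7.77, 8.10, 8.14 and 8.57 against 8.17, 6.70, 7.57, 7.22 and 7.10, so that sham 16 stayed within the earlier range and the other 4 arrays lay below it (-0.88 ± 0.23, adjusted p = 0.0419, up to 0.142). Taf15, an RNA-binding protein of the FET family (-0.76), Lrrc46 (-0.72), Zfp950l1 (-0.71), Pdcl1-ps1, a listed pseudogene (-0.69), Casp8ap2, needed for histone mRNA processing (-0.64), Marchf3, a ubiquitin ligase (-0.62), and Mtfr1, a regulator of mitochondrial fission (-0.62), complete the 12 with Sorcs1 and Zscan21. Their adjusted p ran from 0.0146 (Marchf3, up to 0.0518) to 0.0413 (Pdcl1-ps1, up to 0.123). Values of Zfp950l1 and Pdcl1-ps1 may hold signal from related genes.

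Families of RNA-binding and nuclear proteins, chosen after their values were seen, are described by counts. Across all genes 1.79% fell and 1.29% rose. Of 17 hnRNP genes, which package and splice pre-mRNA, 4 fell and none rose, with 14 below 0 and a median of -0.15. Hnrnpa2b1 measured 11.24, 11.15, 11.13, 11.03 and 11.21 against 10.87, 10.84, 10.97, 10.81 and 10.85, and fell by 0.28 on the log2 scale (adjusted p = 0.0164, up to 0.057). Hnrnpa1 stood at -0.31 (adjusted p = 0.0306, up to 0.0981), Hnrnph3 at -0.41 and Hnrnpll at -0.29 (adjusted p = 0.0253 and 0.0261, each up to 0.0868). Without sham 16, 8 of the 17 fell, as did 677 of all 18625 probe sets. Without sham 20, 1 of the 17 fell, as did 57 of all 18625. Of 10 SR splicing factors 1 fell (Srsf10) and 9 were below 0, and of 21 nucleoporins 2 fell and 16 were below 0. Of 44 DEAD and DEAH box helicases 2 fell, Dhx36 at -0.42 and Dhx9 at -0.29 (adjusted p = 0.0117 and 0.0334, up to 0.0616 and 0.152). Of the 44, 27 were below 0 and 17 above, with a median of -0.03. Ptbp2, the neuronal splicing repressor of the polypyrimidine tract family, fell too (-0.54, adjusted p = 0.0253, up to 0.106), as did Fmr1, the RNA-binding protein of fragile X syndrome (-0.34, adjusted p = 0.0382, up to 0.138). Ptbp2 and Fmr1 were named after their values were seen.

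Of 9 measured PRC2 subunits, which write a repressive histone mark, 2 fell and all 9 were below 0, with a median of -0.14. Suz12 measured 8.17, 7.97, 7.93, 7.91 and 8.13 against 7.58, 7.81, 7.57, 7.50 and 7.03, with no overlap (-0.53 ± 0.11, adjusted p = 0.0196, up to 0.0622). Eed, which reads that mark, was tight at 7.56 to 7.65 against 7.30 to 7.46 (-0.25, adjusted p = 0.0496, up to 0.12). Of 19 SWI/SNF subunits, Pbrm1 and Arid1b (-0.32, adjusted p = 0.0295, up to 0.127) fell. Of the 19, 12 were below 0 and 7 above, with a median of -0.07. In limma 5 below and 3 above 0 had unadjusted p under 0.05. Between the same runs of preconditioned arrays 16 were below 0 (median -0.09). The 2 other probe sets of Arid1b gave -0.355 and 0.084. Hdac2, a histone deacetylase (-0.26, adjusted p = 0.0288, up to 0.091), Top2b, the topoisomerase of neurons (-0.21, adjusted p = 0.0431, up to 0.133), and Rb1, the retinoblastoma protein (-0.48, adjusted p = 0.0242, up to 0.0896), fell as well. Hdac2, Top2b and Rb1 were named after their values were seen. Of 222 zinc finger genes named Zfp, Zscan or Zbtb with a number, 9 fell, 1 rose and 136 were below 0, with a median of -0.06. Across all genes 1.79% fell and 1.29% rose. Between the same runs of preconditioned arrays 174 of the 222 were below 0, with a median of -0.09 against -0.02 for all genes.

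Young-neuron genes differed among themselves. Of 29 measured genes of immature neurons and growth cones, 2 fell, none rose, and 16 were above 0, with a median of 0.02. Across all genes 1.79% fell and 51.0% were above 0. Sox11 measured 7.90, 7.81, 7.77, 7.92 and 7.88 in sham 11 to 15 and 7.65, 7.39, 7.18, 7.45 and 7.49 in sham 16 to 20, with no overlap (-0.43 ± 0.09, adjusted p = 0.0148, up to 0.121). Dcx measured 10.85, 10.70, 10.67, 10.68 and 10.68 against 10.78, 9.91, 10.46, 10.25 and 10.30, so only sham 16 reached the earlier range (-0.38 ± 0.10, adjusted p = 0.0496, up to 0.142). The other probe set of Dcx stood at -0.09 and did not pass. Both genes were highest in sham 1 to 5, Sox11 at 8.23 and Dcx at 10.97. Gap43, of the growth cone, stood at 0.15, Stmn2 at 0.11 and Tubb3, neuronal tubulin, at -0.13, none of them past the threshold (adjusted p = 0.193, 0.309 and 0.233). Nrep, a protein of neuronal differentiation outside the list, fell by 0.27 on the log2 scale (adjusted p = 0.0196, up to 0.0618), and Lrp8, a reelin receptor, by 0.26 (adjusted p = 0.0205, up to 0.0659). Nrep and Lrp8 were named after their values were seen and do not stand for the list.

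Of 42 cell cycle genes 1 fell, against 1.79% of all genes, and none rose. Only 12 were above 0, with a median of -0.15. The 1 was Smc2, a condensin subunit, at 6.72 to 7.15 in sham 11 to 15 and 6.30 to 6.64 in sham 16 to 20 (-0.45, adjusted p = 0.0306, up to 0.0999). Mki67, the proliferation marker, stood at -0.37 and Top2a at -0.27, neither past the threshold (adjusted p = 0.185 and 0.238). Without sham 16, 4 of the 42 fell, as did 677 of all 18625 probe sets. Without sham 20 none of the 42 fell, and 57 of all 18625 did. Between the same runs of preconditioned arrays the median of the list was -0.31, against -0.02 for all genes. There 3 of the 42 were above 0.

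Glial lists leaned upward with few calls, while 1.29% of all genes rose and 51.0% were above 0. Of 23 astrocyte genes, 1 rose and 19 were above 0, with a median of 0.18. The 1 was Clu, clusterin, a secreted chaperone, at 9.92 to 10.30 against 10.12 to 10.43 (0.30, adjusted p = 0.0496, up to 0.132). Without sham 16, 6 of the 23 rose, as did 565 of all 18625 probe sets. Without sham 20 none of the 23 rose, and 21 of all 18625 did. Gfap, the astrocyte filament, stood at 0.44 (adjusted p = 0.16), with 8.88 to 9.45 in sham 11 to 15 and 8.96 to 9.87 in sham 16 to 20. Of 13 microglial and macrophage genes none passed in limma (unadjusted p under 0.05 in 4 above and 1 below 0), yet 12 were above 0 with a median of 0.29. Without sham 16, 3 of the 13 rose, and without sham 20 none did, beside the same counts over all probe sets. Of 15 myelin genes none passed (4 above 0 at unadjusted p under 0.05), with 13 above 0 and a median of 0.16. Mbp, myelin basic protein, measured 8.64, 9.02, 9.10, 9.08 and 8.82 against 8.56, 10.41, 9.28, 9.59 and 9.91, with sham 16 the lowest of all 10 arrays and the other 4 above every array of sham 11 to 15 (0.62 ± 0.23, adjusted p = 0.133).

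**Figure D4:**
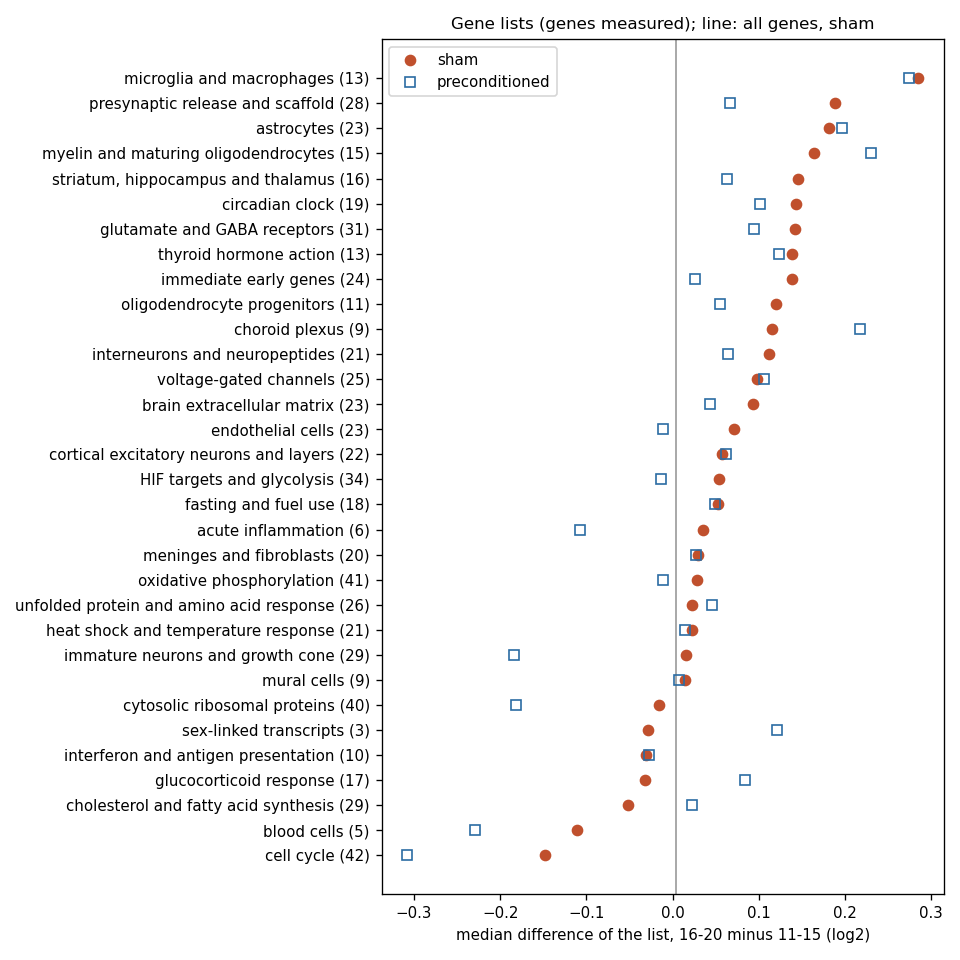
Median difference of each gene list, 16 to 20 minus 11 to 15 on the log2 scale (x axis), in sham (filled circles) and preconditioned arrays (open squares); the number of genes measured is in brackets and the grey line is the median of all genes in sham (0.00). Microglial genes have the highest sham median (0.29) and cell cycle genes the lowest (-0.15), while the immature neuron list is at 0.02 in sham and -0.18 in preconditioned arrays.

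Of 24 immediate early genes, 1 rose and 20 were above 0 (median 0.14). Across all genes 1.29% rose and 51.0% were above 0. Egr1, a transcription factor induced by neuronal activity, measured 8.61, 8.57, 8.45, 8.42 and 8.49 against 8.61, 9.30, 8.77, 9.28 and 9.16; sham 16 was level with sham 11 to 2 decimals and the other 4 arrays were above (0.51 ± 0.14, adjusted p = 0.0419, up to 0.13). Fos stood at 0.47 (adjusted p = 0.243) and Arc, a synaptic activity gene, at 0.35 (adjusted p = 0.297). Of 19 clock genes none passed in limma (unadjusted p under 0.05 in 6 above and 1 below 0), with 14 above 0 and a median of 0.14. Bmal1, the clock activator, stood at -0.10 and Bhlhe41, a clock repressor, at 0.44 (adjusted p = 0.457 and 0.0656); the latter was named after its value was seen. Dbp, a clock output factor, stood at 0.36 (adjusted p = 0.0854), with 6.54 to 6.79 in sham 11 to 15 and 6.76 to 7.36 in sham 16 to 20. Per1 stood at 0.54, Per2 at 0.23, Nr1d1 at 0.27 and Nr1d2 at 0.25 (adjusted p = 0.508, 0.132, 0.329 and 0.102); sham 13 was at the floor of 4 for Per1 and the other 4 arrays of its run at 5.34 to 5.85. The glucocorticoid targets Fkbp5 (0.14) and Sgk1 (-0.01) had adjusted p of 0.485 and 0.965, and of 17 genes of that list none passed (3 above and 2 below 0 at unadjusted p under 0.05).

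No sham array was exposed to hypoxia, and the known hypoxia genes are given for reference. Across all genes 1.29% rose and 1.79% fell. Of 34 HIF targets and glycolytic genes 2 rose, with a median of 0.05: Aldoa, aldolase A, at 11.55 to 11.64 against 11.65 to 11.95 (0.23, adjusted p = 0.0414, up to 0.286), and Hk1, the hexokinase of brain, at 9.81 to 9.96 against 10.08 to 10.21 (0.22, adjusted p = 0.0248, up to 0.0695). Vegfa, the vessel growth factor, stood at 0.06 and Slc2a1, which carries glucose across brain capillaries, at 0.11 (adjusted p = 0.77 and 0.469). Among 21 heat shock and temperature genes, 1 fell, Chordc1, an HSP90 co-chaperone (-0.27, adjusted p = 0.0253, up to 0.0648), while Cirbp, Rbm3 and Hspa1a stood at 0.13, -0.13 and 0.09 (adjusted p = 0.661, 0.248 and 0.844). Among 26 unfolded protein response genes, 1 fell, Hsp90b1, the HSP90 of the endoplasmic reticulum (-0.27, adjusted p = 0.0208, up to 0.103), and among 29 genes of cholesterol and fatty acid synthesis 1 fell, Acat2 (-0.34, adjusted p = 0.0319, up to 0.0938). Of 23 genes of the brain extracellular matrix 1 rose, Bcan, brevican of perineuronal nets (0.28, adjusted p = 0.0378, up to 0.114).

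In the remaining lists no gene passed in limma. Medians lay between -0.02 and 0.14 for ribosomal proteins (40 measured, -0.02), oxidative phosphorylation (41, 0.03), fuel use (18, 0.05), voltage-gated channels (25, 0.10), interneurons and neuropeptides (21, 0.11) and thyroid hormone action (13, 0.14), with 7, 6, 4, 3, 6 and 3 genes at unadjusted p under 0.05. Markers of cells or regions that a dissection could also hold gave 0.01 for mural cells (9 measured), 0.03 for meninges and fibroblasts (20), 0.07 for endothelium (23), 0.11 for choroid plexus (9), 0.12 for oligodendrocyte progenitors (11) and 0.14 for striatum, hippocampus and thalamus (16), with 0, 2, 3, 1, 1 and 3 genes at unadjusted p under 0.05. The mean level of the choroid plexus list was 6.37 to 6.91 in sham 11 to 15 and 6.49 to 6.98 in sham 16 to 20. That of the striatum, hippocampus and thalamus list was 6.975 to 7.082 and 7.085 to 7.279, narrowly without overlap. Lists of other kinds did not overlap either. These were clock genes (7.012 to 7.071 and 7.084 to 7.333), immediate early genes (7.019 to 7.081 and 7.159 to 7.335) and interneurons (7.869 to 7.935 and 7.945 to 8.008). The part of dissection in the results was not tested. Blood (5 measured, -0.11), interferon response (10, -0.03), acute inflammation (6, 0.04) and sex-linked transcripts (3, -0.03) had 1, 1, 2 and 0 genes at unadjusted p under 0.05.

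The same runs of numbers were then compared in the 20 preconditioned arrays, which share no array with the sham comparison. Between preconditioned 16 to 20 and 11 to 15, 3 of 18625 probe sets passed (0.0161%; 1975 at unadjusted p under 0.05), and none was among the 522 of sham. In 1 fit of all 40 arrays the counts were 51 in preconditioned and 121 in sham. The median residual SD was 0.191 in the preconditioned fit and 0.167 in the sham fit. The 3 probe sets were Apln, the vessel peptide apelin (1.03 ± 0.11 SE), Tril, a Toll-like receptor accessory protein (0.54 ± 0.09), and Pla1a (-0.85 ± 0.14). Without preconditioned 16, 56 probe sets passed, without 12 there were 12 and without 13 there were 7, while without 11, 14, 17 or 20 only 1 passed. Of the 209 probe sets higher in sham, 153 (73.2%) were above 0 in preconditioned arrays, against 45.8% of all probe sets; their median there was 0.09. Of the 313 lower in sham, 201 (64.2%) were below 0, against 54.2% of all, with a median of -0.04. Over the 4 sham runs the probe sets that rose had median levels of 8.34, 8.31, 8.37 and 8.65, and over the 4 preconditioned runs 8.45, 8.31, 8.46 and 8.58. For those that fell the sham medians were 8.39, 8.40, 8.35 and 7.99, and the preconditioned ones 8.30, 8.17, 8.17 and 8.14. The first 2 of the 4 runs are those with the other spike-in signal. The sham difference of both sets thus lay in the 16 to 20 run, and the sets had been chosen on that run.

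Named genes differed in how far the preconditioned arrays followed. Sox11 (-0.43 in sham, -0.49 in preconditioned), Dcx (-0.38, -0.42), Egr1 (0.51, 0.48), Tppp (0.55, 0.50), Agt (0.53, 0.48), Clu (0.30, 0.28) and Nrep (-0.27, -0.22) had near-equal differences, though none passed the threshold in the preconditioned arrays. Syn1 (0.42, -0.03), Sorcs1 (-0.72, -0.07), Suz12 (-0.53, 0.01) and Csnk1g3 (-0.31, 0.01) had a preconditioned difference near 0. For these the test of the difference did not pass (interaction adjusted p = 0.31, 0.353, 0.354 and 0.13), so they are not shown to differ between treatments.

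**Figure D5:**
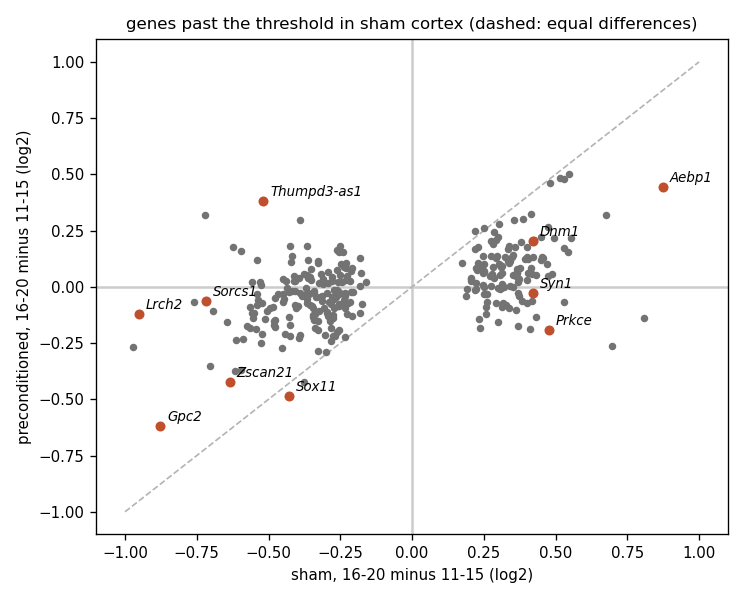
Difference between numbers 16 to 20 and 11 to 15 in sham (x axis) and preconditioned arrays (y axis), both log2, for the 317 genes past the threshold in sham; the dashed line marks equal differences. Most points lie nearer to 0 on the y axis than on the x axis, Sox11 lies near the line, and Prkce and Thumpd3-as1 lie on the opposite side of 0. The genes were chosen on their x axis values, and such a choice alone can leave the y axis values nearer to 0.

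The difference of the differences, sham minus preconditioned, passed for 3 of 18625 probe sets (0.0161%; 1829 at unadjusted p under 0.05). Prkce rose in sham and stood at -0.19 ± 0.09 in preconditioned arrays, whose means were 8.99 and 8.80 (interaction 0.67 ± 0.12, limma adjusted p = 0.0213). Thumpd3-as1, an antisense transcript whose probe set is not known here to keep it apart from its neighbour, fell by 0.52 on the log2 scale in sham (adjusted p = 0.0198) and stood at 0.38 in preconditioned arrays (interaction -0.90 ± 0.17, adjusted p = 0.0418). Pla1a, a phospholipase of low level, stood at 0.66 in sham (adjusted p = 0.122) and fell by 0.85 on the log2 scale in preconditioned arrays (adjusted p = 0.0276), with an interaction of 1.504 ± 0.27 (adjusted p = 0.0213). No probe set passed this test when preconditioned 11, 12, 15 or 20 or sham 18 was left out (1519, 1601, 1793, 1635 and 1759 at unadjusted p under 0.05), 1 passed without sham 12 or sham 13, 5 passed without preconditioned 16 or 17, and 12 passed without preconditioned 13.

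Where a gene had several probe sets, they mostly pointed the same way. Of 65 further probe sets of genes that rose, 54 (83.1%) were above 0, and of 134 of genes that fell, 103 (76.9%) were below 0; 5 and 4 of them passed in the same direction and none in the other. Some falls rested on 1 probe set of a gene. A probe set of Scd2, a fatty acid desaturase, fell by 0.78 on the log2 scale (adjusted p = 0.00118) at a mean level of 6.41, while the main one at 12.02 stood at 0.01. A probe set of Wtap, of the RNA methylation complex, fell by 0.38 with the main one at 0.05, and one of Nusap1, a spindle protein, fell by 0.56 with the main one at -0.09. Both probe sets of Cacybp were below 0 (-0.43 and -0.29). Unnamed probe sets were 18.2% of those that rose, 22.7% of those that fell and 21.7% of all kept.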

How the data were processed

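Intensities were taken as deposited, in 1 table of 40 arrays. The authors' linear intensities are scaled so that trimmed array means are alike; the scaling method is not given in the sources used here. Control probe sets (57 of 31099) were left out, values under 16 set to 16 and log2 taken, with no further normalization because array medians spanned 0.291. Probe sets with a mean over 40 arrays at or above the 40th percentile (intensity 31.9) were kept, 18625 in all, and 0.112% of their values in the 10 arrays were at the floor. The deposited table holds no read depth, and the number of arrays limits the precision.

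Genes come from the platform annotation and RefSeq GRCr8 (20764 of 20832 single-gene probe sets matched); 4043 kept probe sets have no gene and 309 several. A gene stands for its kept probe set with the highest mean. limma 3.58.1 in R 4.3.3 (lmFit, eBayes with trend) fitted 4 run means to the 20 sham arrays; the preconditioned arrays had a fit of their own, and the interaction used 40 arrays. Calls are at Benjamini-Hochberg adjusted p under 0.05 over all kept probe sets; scripts were tested on simulated data. Array measures had exact permutation tests.

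Named genes are the 12 largest rises and falls, up to 4 called members of each list, a fixed set of clock, activity, glial, hypoxia, temperature and sex genes, and interaction calls; Per3, Ciart and Pdk4 had no kept probe set, and Arntl is listed as Bmal1. The comparison and lists were chosen with earlier results of these data known; families, extra genes and the genes called under every alternative were added after seeing values. Alternatives changed scaling, floor, filter, variance trend, arrays fitted, a replicate block and covariates (Xist, actin ratio). Sham and preconditioned arrays share numbers, which were not taken as pairs; the 2 sham runs share none.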

Additional observations from a re-analysis of the deposited data

Results flagged for a closer look

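In 3 transcripts the change between the runs differed between sham and preconditioned arrays by the interaction test in limma. The sham difference minus the preconditioned difference was 0.669 for Prkce, 1.504 for Pla1a and -0.901 for Thumpd3-as1 (adjusted p = 0.0213, 0.0213 and 0.0418).

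Among 134 groups of 5 arrays (61 named genes and 6 array measures in both runs), 7 held an array far from the others (5.22%), where chance gives about 1 in 20. Sham 11 was low for Fgl2 (4.27, others 4.67 to 4.80) and high for Dcx (10.85, others 10.67 to 10.70). Sham 13 was low for Gabrb2 (9.14, others 9.85 to 9.89) and at the floor for Per1 (4.00, others 5.34 to 5.85). Sham 14 was low for Hk1 (9.81, others 9.91 to 9.96) and had the highest 3' to 5' ratio of the hexokinase control (1.62, others 1.36 to 1.42). Sham 19 was high for Nr1d1 (6.22, others 5.71 to 5.82).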

How the results depend on the processing

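The sham count of 522 stayed within 1.5 times under quantile normalization, median centring, floors of 1 and 32, a pseudocount, the 60th percentile filter, only the 10 arrays and the Xist covariate (360 to 699), but was 196 with no filter, 230 with no mean trend, 121 in 1 fit of all 40 arrays, 142 there with a replicate block and 854 with the actin ratio as a covariate; leaving out 1 array gave 78 to 1242. Of the 121 probe sets, 119 were among the 522. The preconditioned count of 3 was 11 with quantile normalization, 15 with median centring, 5 in the arrays of its runs alone, 51 in the 40-array fit, 58 with the replicate block, 5 without preconditioned 5 and 6, and 1 to 56 leaving out 1 array. The interaction count of 3 was 6 with quantile normalization, 5 with median centring, 0 with no filter (2428 at unadjusted p under 0.05 in limma), 18 with the replicate block, 13 without preconditioned 5 and 6, and 0 to 12 leaving out 1 array. The block (correlation 0.11) rests on shared numbers only: residuals of same-numbered sham and preconditioned arrays correlated at 0.031 to 0.39 over 20 pairs (median 0.16, over 0.1 in 15), and 12 of 20 sham arrays correlated best with their own number, a hint from the data and not the design. The cause of these shifts was not tested. Of 522 sham calls, 61 stayed in all 10 fits that left out an array. Of the named genes only Sgk1 changed direction: its main difference was -0.01, against 0.00421 with the Xist covariate, 0.00329, 0.0217 and 0.000749 without sham 13, 17 and 20, and -0.0412 to 0.0217 over all fits leaving out 1 array.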
